A study of Homo sapiens with 16 samples.

Results

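The respiratory chain subunits that are encoded in the nucleus were followed at the RNA level in Sorafenib-resistant hepatocellular carcinoma (HCC) cells. Members were the genes named NDUFA, NDUFB, NDUFC, NDUFS or NDUFV with a number (complex I), SDHA to SDHD (complex II), CYC1 and the UQCR subunits (complex III), the subunits COX4 to COX8 (complex IV) and the ATP5 subunits (complex V), without assembly factors, pseudogenes and antisense genes. NDUFA4 was counted with complex IV, in which its protein resides. Of 86 listed genes, 80 had at least 1 CPM, a gene's reads scaled to the library total, in at least 2 of the 16 libraries and were kept as members, out of 26258 genes in the table and 15019 genes with the same minimum. These 80 were 36 of 36 for complex I, 4 of 4 for complex II, 10 of 10 for complex III, 12 of 18 for complex IV and 18 of 18 for complex V. The chain's subunits encoded in mitochondrial DNA were not analysed here.

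The cell lines Huh7 and Hep3B derive from human HCC, and Sorafenib is a multikinase inhibitor used against advanced HCC. For each line, 2 libraries each were sequenced of parental cells, of cells labelled DMSO, of IR cells, which had become resistant under increasing concentrations of Sorafenib, and of CR cells, which had become resistant under a constantly high one. By the labels, resistant cells of both kinds were under 7 μM Sorafenib, and the parental and DMSO cells were untreated. The presence of the drug and the resistance to it therefore cannot be told apart, and neither can fewer cells with an RNA and less of that RNA per cell. Each resistant group is 1 selected population of its line, both regimens of a line share their parental libraries, and no label states that 2 libraries of a group came from separate cultures, so p-values measure the spread between libraries, which may be technical.

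Complex I and complex II pass electrons from NADH and succinate to ubiquinone, complex III hands them to cytochrome c, and complex IV transfers them to oxygen. Complexes I, III and IV pump protons across the inner mitochondrial membrane, and complex V, the ATP synthase, uses their return flow to make ATP. Except for complex II, each complex is assembled from nuclear and mitochondrial gene products, and hepatocytes are rich in mitochondria and depend on this chain.

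Nuclear genes of the chain are known to share promoter motifs, among them those of NRF1, of ETS factors such as GABP, and of YY1. Windows from 250 bases before to 50 bases after the start of the RefSeq genes were available for 65 of the 80 members on GRCh38.p14, which is not the build of the deposited values. In these windows, both strands were searched for the core letters of the NRF1 motif (GCATGCGC), the ETS motif (CCGGAAG), the YY1 motif (AAGATGGC) and the hypoxia response element (ACGTG). The NRF1 core was in 13 of the 65 promoters (20%), compared with 3.27% of 27305 promoters of all genes. The ETS core was in 20 (30.8%, compared with 10.7% of all promoters), the YY1 core in 11 (16.9%, compared with 3.03%) and the hypoxia response element core in 17 (26.2%, compared with 21.6%). Among the 11742 promoters of genes that passed the same CPM minimum, the shares were 5.42%, 18.4%, 5.05% and 26.2%, so the hypoxia response element core had the same share in the members as over these genes. At least 1 of the 4 was found in 43 of the 65. A match is a description of letters and not a binding site. The promoters of 5 genes are printed 5′ to 3′ on the gene's strand with the matches in capitals: SDHB holds 3 of the 4 cores, NDUFB4, ATP5MC1 and COX7A2L belong to genes that changed in the same direction in each resistant group, and ATP5MC2 belongs to a gene that encodes the same protein subunit as ATP5MC1 and did not fall with it against parental cells. The windows are chr1:17053983-17054282 (minus strand) for SDHB, chr3:120596086-120596385 (plus strand) for NDUFB4, chr17:48892537-48892836 (plus strand) for ATP5MC1, chr12:53676034-53676333 (minus strand) for ATP5MC2 and chr2:42361168-42361467 (minus strand) for COX7A2L.
SDHB: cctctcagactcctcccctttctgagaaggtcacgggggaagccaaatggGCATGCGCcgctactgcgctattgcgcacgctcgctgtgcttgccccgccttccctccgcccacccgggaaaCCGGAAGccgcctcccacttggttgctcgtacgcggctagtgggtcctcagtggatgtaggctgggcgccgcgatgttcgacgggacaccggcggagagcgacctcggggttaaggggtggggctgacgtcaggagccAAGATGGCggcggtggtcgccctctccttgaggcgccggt
NDUFB4: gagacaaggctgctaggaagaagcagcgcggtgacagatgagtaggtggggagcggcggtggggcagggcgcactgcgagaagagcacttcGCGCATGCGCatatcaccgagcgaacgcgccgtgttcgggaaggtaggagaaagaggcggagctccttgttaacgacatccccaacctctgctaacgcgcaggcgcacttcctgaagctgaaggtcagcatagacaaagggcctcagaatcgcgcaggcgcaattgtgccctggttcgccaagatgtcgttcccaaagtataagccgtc
ATP5MC1: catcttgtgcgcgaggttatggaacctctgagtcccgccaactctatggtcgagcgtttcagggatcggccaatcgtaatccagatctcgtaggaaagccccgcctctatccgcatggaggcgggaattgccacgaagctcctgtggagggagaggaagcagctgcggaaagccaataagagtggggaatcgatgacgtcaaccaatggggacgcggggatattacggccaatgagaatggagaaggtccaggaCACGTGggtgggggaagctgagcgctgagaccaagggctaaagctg
ATP5MC2: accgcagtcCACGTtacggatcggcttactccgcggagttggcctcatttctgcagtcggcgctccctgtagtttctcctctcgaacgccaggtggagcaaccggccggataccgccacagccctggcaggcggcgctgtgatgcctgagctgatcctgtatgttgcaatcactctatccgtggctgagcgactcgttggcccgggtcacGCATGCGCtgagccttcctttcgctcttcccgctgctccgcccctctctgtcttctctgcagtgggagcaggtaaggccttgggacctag
COX7A2L: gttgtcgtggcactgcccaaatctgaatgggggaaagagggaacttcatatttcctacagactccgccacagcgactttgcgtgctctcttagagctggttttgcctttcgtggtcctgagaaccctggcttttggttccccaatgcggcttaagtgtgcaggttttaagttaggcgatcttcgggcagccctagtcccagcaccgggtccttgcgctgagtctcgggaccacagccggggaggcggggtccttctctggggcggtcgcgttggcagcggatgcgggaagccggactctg
The capitals mark an NRF1, an ETS and a YY1 core in SDHB, 2 NRF1 cores on opposite strands that overlap by 6 bases in NDUFB4, 2 hypoxia response element cores on opposite strands that overlap by 4 bases in ATP5MC1, and a hypoxia response element core and an NRF1 core in ATP5MC2. None of the 4 cores is in the COX7A2L window.

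Values are CPM, and total reads were between 46613302 and 76860251 per library. Changes were fitted with limma on log2(CPM + 1) across all 15019 genes and all 16 libraries, and a gene counted as changed at a Benjamini-Hochberg adjusted p below 0.05. Where 4 values are given without names, they stand for Huh7-IR cells, Huh7-CR cells, Hep3B-IR cells and Hep3B-CR cells, in that order. A member's lowest count in any library was 142 reads. The SD of the log2 difference between replicates across genes was at most 0.310 except in Huh7-IR (0.566) and Huh7 DMSO cells (0.571). Of 10 hepatocyte markers, which include ALB and HNF4A, 9, 8, 4 and 7 fell in the 4 resistant groups. Among all genes, 21.5%, 16.8%, 13.7% and 15.2% fell. Not every marker fell in Hep3B-IR cells. SERPINA1 was at 1161 and 2052 CPM there, compared with 392 and 547 in Hep3B parental cells. HNF4A was at 220 and 154 CPM, compared with 191 and 198. The summed CPM of the 10 markers was 10735 and 16293 in Huh7 parental, 22743 and 27809 in DMSO, 115 and 473 in IR and 1376 and 2804 in CR cells. For Hep3B the sum was 17396 and 21546 in parental, 30902.5 and 36730 in DMSO, 3614 and 10434 in IR and 1322 and 2162 in CR cells. The DMSO libraries of each line thus lay above its parental ones. CD3E was at 0 in 11 of 16 libraries and at most 0.0530 CPM, and PTPRC was at most 1.32 CPM. CD68, a macrophage marker, was at 5.47 and 2.58 CPM in Huh7 parental and 3.75 and 10.8 in DMSO cells, and between 46.3 and 71.9 CPM in the resistant Huh7 libraries. In Hep3B, CD68 was at 7.46 and 10.3 CPM in parental, 18.2 and 32.9 in DMSO and between 27.6 and 51.2 in resistant cells, and it rose in all 4 resistant groups (log2 fold changes 3.62, 3.32, 2.19 and 1.78). The summed CPM of the fibroblast markers COL1A1, COL1A2, PDGFRB and DCN was between 4.33 and 12.6 in Huh7 parental and DMSO cells and between 266 and 442 in Huh7-IR and Huh7-CR cells. In Hep3B this sum was 4.17 and 5.99 in parental, 14.5 and 12.4 in DMSO, 64.7 and 12.8 in IR and 71.0 and 51.3 in CR cells. In resistant cells the sums rose mainly through collagen genes. In resistant Huh7 libraries COL1A1 was between 31.1 and 60.7 CPM and COL1A2 between 202 and 405 CPM. PDGFRB was at most 2.28 and DCN at most 2.50 CPM there. In Hep3B, COL1A1 was at 62.9 and 11.5 CPM in IR and 66.2 and 47.3 in CR cells. COL1A2 was at most 1.87 CPM in any Hep3B library. PDGFRB was at 3.90 and 5.67 CPM in Hep3B parental and at most 1.36 CPM in Hep3B-IR cells. The summed endothelial markers ranged from 0.0773 to 6.35 CPM over all libraries. The part of these marker changes in the results on the subunits was not tested.

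In each resistant group more members fell than rose, and their number was highest in Huh7-IR cells. In Huh7-IR cells 47 of the 80 members fell and 5 rose, compared with 21.5% of all genes lower and 36% higher, and the median log2 fold change of the members was -0.50 compared with 0.19 for all genes. In Huh7-CR cells 21 members fell and 6 rose, compared with 16.8% of all genes lower and 24.5% higher, and the medians were -0.20 and 0.07. In Hep3B-IR cells 14 fell and 2 rose, compared with 13.7% lower and 18.3% higher, and the medians were -0.12 and 0.06. In Hep3B-CR cells 24 fell and 2 rose, compared with 15.2% lower and 23.6% higher, and the medians were -0.17 and 0.11. The share of members that fell was thus 58.8%, 26.3%, 17.5% and 30.0%, which for Hep3B-IR cells is near the share over all genes. The study's thresholds were an unadjusted p below 0.05 with a log2 fold change of 0.58 or more in size. By these, 34, 14, 7 and 10 of the 80 members were lower, compared with 18.2%, 14.6%, 12.5% and 13.2% of all genes. As a share of the 80, this is above all genes in Huh7-IR cells and near them in Huh7-CR cells. In Hep3B-IR and Hep3B-CR cells it is below the share over all genes, for Hep3B-CR cells only slightly.

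The sum over the 80 members was 10319 and 9776 CPM in Huh7 parental and 9893 and 10102 CPM in Huh7 DMSO cells. It was 7239 and 7034 CPM in Huh7-IR and 8491 and 8424 CPM in Huh7-CR cells. The resistant Huh7 libraries did not overlap the parental or DMSO libraries, and the ratios to parental cells were 0.710 and 0.842. In Hep3B the sum was 8683 and 9040 CPM in parental, 9476 and 8894 CPM in DMSO, 7783 and 8115 CPM in IR and 7788 and 7839 CPM in CR cells. Here, too, each resistant library lay below each parental and DMSO library, and the ratios were 0.897 and 0.882. With TMM factors the median over all genes in Huh7-IR cells went from 0.19 to 0.04, so that 4451 genes were higher and 4127 lower in place of 5401 and 3234. The members lower by this scaling then numbered 57, 32, 18 and 34, and those higher 2, 4, 0 and 1, compared with 27.5%, 20.4%, 15.5% and 18.5% of all genes lower and 29.6%, 21.9%, 16.8% and 19.6% higher. Relative to the median gene, decreases of members were thus larger and increases smaller than in CPM.

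By complex, the ratio of the summed CPM in Huh7-IR to parental cells was 0.738 for complex I, 0.676 for complex II, 0.723 for complex III, 0.724 for complex IV and 0.683 for complex V. In Huh7-CR cells these ratios were 0.862, 0.741, 0.812, 0.860 and 0.839. In Hep3B-IR cells they were 0.878, 0.769, 1.00, 0.887 and 0.897, and in Hep3B-CR cells 0.916, 0.807, 0.903, 0.823 and 0.885. Complex II had the lowest ratio in each resistant group, and the differences between complexes were not tested.

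Of the 36 members of complex I, 19, 11, 4 and 8 fell in the resistant groups, and 1, 2, 0 and 0 rose. The members that fell are 52.8%, 30.6%, 11.1% and 22.2% of them, compared with 21.5%, 16.8%, 13.7% and 15.2% of all genes. The share in Hep3B-IR cells is below that over all genes. The median log2 fold changes of the members were -0.45, -0.19, -0.09 and 0.01. Of the 16 members of the matrix arm, which oxidises NADH, 10, 5, 3 and 4 fell, and of the 20 members of the membrane arm, which pumps protons, 9, 6, 1 and 4 fell. Of the 7 nuclear core subunits, which carry flavin, iron-sulfur clusters or the quinone site, 5, 2, 3 and 3 fell, and of the 29 accessory subunits 14, 9, 1 and 5.

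NDUFV2 (gene ID 4729; GRCh37 chr18:9102628-9134343), a core subunit with an iron-sulfur cluster next to the NADH site, was at 121 and 117 CPM in Huh7 parental, 109 and 93.3 in DMSO, 56.0 and 60.1 in IR and 67.1 and 75.2 in CR cells. Hep3B cells had 81.0 and 73.0 CPM in parental, 75.2 and 65.8 in DMSO, 50.8 and 55.4 in IR and 49.4 and 44.3 in CR cells. All resistant libraries lay below all parental and DMSO libraries of their line. Its log2 fold changes were -1.02, -0.73, -0.53 and -0.71 (SE 0.13 each, n = 2 libraries per group, limma adjusted p 3.9e-05, 0.00078, 0.0080 and 0.0012). The Hep3B-IR call was lost without Hep3B parental replicate 1 (-0.45, limma adjusted p = 0.068) or Hep3B-IR replicate 1 (-0.47, limma adjusted p = 0.070).

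NDUFB4 (gene ID 4710; GRCh37 chr3:120315175-120321354), an accessory subunit of the membrane arm whose promoter is printed above, was at 136 and 134 CPM in Huh7 parental, 164 and 187 in DMSO, 76.5 and 86.2 in IR and 61.9 and 77.7 in CR cells. In Hep3B it was at 125 and 121 CPM in parental, 130 and 117 in DMSO, 86.7 and 78.0 in IR and 56.6 and 57.5 in CR cells. No resistant library reached an untreated one. The log2 fold changes were -0.73, -0.95, -0.58 and -1.10 (SE 0.13 each, limma adjusted p 0.00056, 0.00014, 0.0055 and 6.9e-05), and NDUFB4 had the lowest change of the members in Hep3B-CR cells.

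Other complex I subunits did not fall in each group. NDUFV1, which binds NADH and flavin, was at 203 and 160 CPM in Huh7 parental and at 102 and 141 CPM in Huh7-IR cells, and its log2 fold change of -0.58 ± 0.21 (SE, n = 2; limma adjusted p = 0.028) was past the threshold only in this resistant group and not without Huh7 parental replicate 1 (-0.41) or Huh7-IR replicate 1 (-0.35). NDUFS1, the largest subunit, fell in Huh7-IR cells by 0.46 on the log2 scale and had log2 fold changes of 0.12, -0.08 and -0.09 in the other resistant groups, which did not pass. NDUFB8, an accessory subunit of the membrane arm, had log2 fold changes of -0.17, -0.12, -0.07 and 0.01, none past the threshold. NDUFA10, an accessory subunit on the matrix side of the membrane arm, rose in Huh7. It was at 70.5 and 70.8 CPM in Huh7 parental, 63.3 and 66.5 in DMSO, 88.1 and 92.5 in IR and 107 and 104 in CR cells. Its resistant Huh7 libraries lay above the untreated ones, with log2 fold changes of 0.35 in IR and 0.57 in CR cells (limma adjusted p 0.015 and 0.0012). The remaining member of complex I that rose was NDUFA1, chosen for mention after its values were seen, with 0.34 in Huh7-CR cells.

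Complex II, succinate dehydrogenase, is both a chain complex and an enzyme of the citric acid cycle. All of its 4 members fell in Huh7-IR cells, 2 in Huh7-CR and 1 each in Hep3B-IR and Hep3B-CR cells, and none rose. The shares over all genes that fell were 21.5%, 16.8%, 13.7% and 15.2%. SDHC (gene ID 6391; GRCh37 chr1:161284171-161332996), a membrane anchor, was at 157 and 159 CPM in Hep3B parental, 187 and 166 in DMSO, 75.8 and 85.0 in IR and 99.9 and 105 in CR cells. The resistant libraries lay well below the untreated ones. Its log2 fold change of -0.97 ± 0.12 (SE, n = 2) was the lowest of any member in Hep3B-IR cells (limma adjusted p = 0.00010), and it was -0.62 in both Hep3B-CR and Huh7-IR cells, also past the threshold.

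SDHB (gene ID 6390; GRCh37 chr1:17345159-17380527), the iron-sulfur subunit, was at 128 and 117 CPM in Huh7 parental, 102 and 100 in DMSO, 95.7 and 82.0 in IR and 96.4 and 84.3 in CR cells. The DMSO libraries lay between the parental and the resistant ones. Its log2 fold changes in Huh7 of -0.46 (IR) and -0.43 (CR) were past the threshold against parental cells and not against DMSO cells (-0.19 and -0.16, limma adjusted p 0.22 and 0.32). The changes were -0.39 and -0.37 without Huh7 parental replicate 1, without Huh7-IR replicate 2 -0.35 and without Huh7-CR replicate 2 -0.34, none past the threshold. In Hep3B the changes of 0.08 and 0.22 did not pass. SDHA, the flavin subunit, fell in Huh7-IR cells by 0.67 on the log2 scale, from 113 and 108 to 63.8 and 75.4 CPM, and by 0.65 in Huh7-CR cells, to 62.0 and 79.8 CPM. The Huh7-IR call was lost without Huh7-IR replicate 1 (-0.55), and the Huh7-CR call without Huh7 parental replicate 1 (-0.61), Huh7 parental replicate 2 (-0.68) or Huh7-CR replicate 1 (-0.47). SDHA has pseudogene copies, and reads shared with them were not counted, since only unique hits were kept.

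In complex III, 8, 2, 1 and 2 of 10 members fell in the resistant groups, and 1, 0, 1 and 0 rose. Among all genes, 21.5%, 16.8%, 13.7% and 15.2% fell and 36%, 24.5%, 18.3% and 23.6% rose. Outside Huh7-IR cells, the counts of complex III members that fell are near the shares over all genes. The median log2 fold changes of the members were -0.72, -0.18, -0.15 and -0.22. CYC1, cytochrome c1, was at 147 and 113 CPM in Huh7 parental, 113 and 130 in DMSO, 70.9 and 78.0 in IR and 65.3 and 64.1 in CR cells. The resistant Huh7 libraries lay below the untreated ones, with log2 fold changes of -0.79 and -0.98 ± 0.16 (SE, n = 2; limma adjusted p 0.0012 and 0.00044). In Hep3B, CYC1 was between 61.8 and 102 CPM in all libraries and the changes of -0.24 and 0.14 did not pass. UQCRFS1, the Rieske iron-sulfur protein, fell in Huh7-IR cells by 0.89 on the log2 scale and passed in no other resistant group.

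The subunits UQCRC1 and UQCRC2, the pair of core proteins on the matrix side, did not follow the others. UQCRC1 was at 146 and 126 CPM in Huh7 parental, 135 and 154 in DMSO, 220 and 213 in IR and 159 and 166 in CR cells. It was at 101 and 100 CPM in Hep3B parental, 116 and 122 in DMSO, 78.6 and 68.5 in IR and 89.4 and 89.6 in CR cells. The resistant libraries lay above the untreated ones in Huh7 and below them in Hep3B. UQCRC1 rose in Huh7-IR cells (log2 fold change 0.67 ± 0.12, SE, n = 2; limma adjusted p = 0.00039) and fell in Hep3B-IR cells (-0.45 ± 0.12, limma adjusted p = 0.011). UQCRC2 was at 208 and 228 CPM in Hep3B parental and 278 and 292 CPM in Hep3B-IR cells, and rose there (0.38 ± 0.11, limma adjusted p = 0.019). That call was lost with TMM factors (0.32, limma adjusted p = 0.058) and without Hep3B parental replicate 1 (0.32), Hep3B-IR replicate 1 (0.42) or Hep3B-IR replicate 2 (0.35). UQCRH and its retrocopy UQCRHL are nearly identical, so the reads given to either are uncertain.

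In complex IV, cytochrome c oxidase, 8, 3, 4 and 7 of 12 members fell, and 1, 1, 1 and 2 rose. For all genes the shares were 21.5%, 16.8%, 13.7% and 15.2% lower and 36%, 24.5%, 18.3% and 23.6% higher. The median log2 fold changes of the members were -0.58, -0.29, -0.08 and -0.48. COX6C, a small subunit of the membrane part, was at 126 and 117 CPM in Huh7 parental, 116 and 121 in DMSO, 54.2 and 51.0 in IR and 77.6 and 63.9 in CR cells. Its Hep3B values were 168 and 152 CPM in parental, 110 and 105 in DMSO, 100 and 103 in IR and 78.8 and 80.4 in CR cells. The Hep3B DMSO libraries lay next to the Hep3B-IR ones. COX6C had log2 fold changes of -1.19, -0.78, -0.65 and -0.99 (SE 0.12 each), all past the threshold against parental cells, and the Hep3B-IR change against DMSO cells was -0.08 (limma adjusted p = 0.62).

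COX5A (gene ID 9377; GRCh37 chr15:75212132-75230424), a subunit on the matrix side, was at 106 and 101 CPM in Huh7 parental, 82.8 and 85.4 in DMSO, 64.2 and 47.8 in IR and 63.4 and 58.7 in CR cells. Hep3B cells had 102 and 121 CPM in parental, 107 and 98.2 in DMSO, 72.0 and 80.2 in IR and 59.7 and 70.6 in CR cells. Every resistant library was lower than every untreated one of its line. For COX5A the log2 fold changes were -0.89, -0.75, -0.55 and -0.77 (SE 0.15 each, limma adjusted p 0.00035, 0.0019, 0.016 and 0.0019), and the Hep3B-IR call was lost without Hep3B parental replicate 2 (-0.42) or Hep3B-IR replicate 1 (-0.47).

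COX7A2L (gene ID 9167; GRCh37 chr2:42560686-42652228), which joins complexes III and IV into supercomplexes, rose in all 4 resistant groups. It was at 69.8 and 66.3 CPM in Huh7 parental, 63.9 and 98.4 in DMSO, 170 and 110 in IR and 139 and 114 in CR cells. In Hep3B it was at 85.4 and 88.6 CPM in parental, 101 and 104 in DMSO, 130 and 136 in IR and 166 and 140 in CR cells. All resistant libraries lay above all untreated ones of their line, with a wide spread between the Huh7-IR replicates. The log2 fold changes were 1.00, 0.88, 0.61 and 0.80 (SE 0.21 each, n = 2; limma adjusted p 0.0017, 0.0062, 0.047 and 0.011), and the first of these was the largest increase of any member in Huh7-IR cells. The Hep3B-IR call was lost in 11 of 14 alternatives, among them TMM factors (0.55) and the omission of any 1 of the 4 Hep3B parental and IR libraries (0.58 to 0.64). The Huh7-CR call was lost without Huh7-CR replicate 1 (0.73), and the Hep3B-CR call without Hep3B parental replicate 1 (0.77), Hep3B parental replicate 2 (0.82), Hep3B-CR replicate 1 (0.68) or against DMSO cells (0.56).

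**Figure D1:**
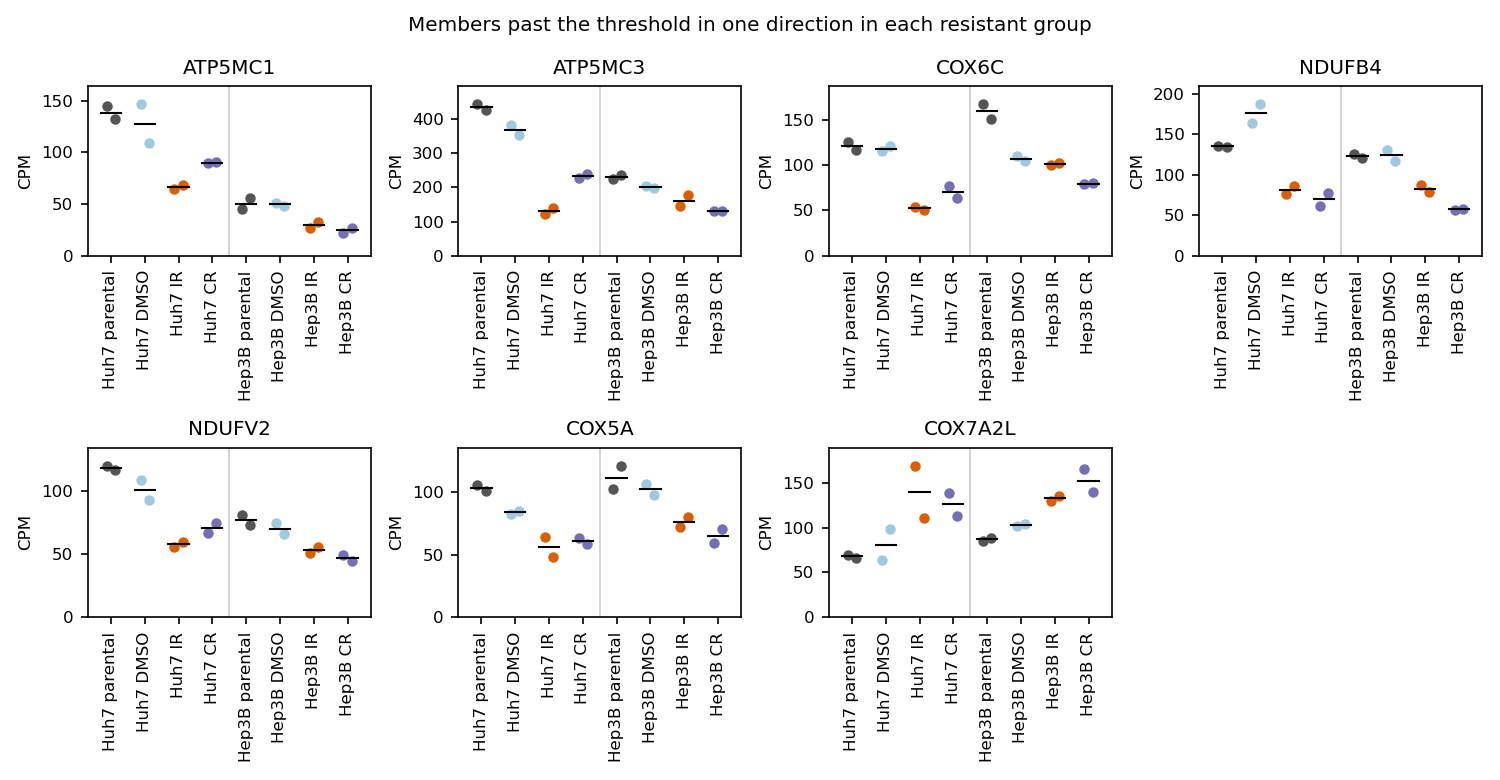
CPM (vertical axis, from 0) of 7 members that passed the threshold in 1 direction in each resistant group against parental cells. Points are libraries and lines are means of 2 libraries. COX7A2L is higher in the resistant libraries (110 to 170 CPM) than in the parental ones (66.3 to 88.6 CPM), and the other 6 genes are lower.

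COX7C, a small subunit of the membrane part, fell in Huh7-IR cells by 1.31 on the log2 scale, from 186 and 176 to 78.1 and 67.1 CPM, and by 0.77 in Huh7-CR and 0.53 in Hep3B-CR cells. COX8A, likewise a small membrane subunit, was at 84.6 and 77.2 CPM in Hep3B parental and 48.2 and 40.5 CPM in Hep3B-IR cells (log2 fold change -0.86 ± 0.16, SE, n = 2; limma adjusted p = 0.0013). NDUFA4 fell by 0.80, 0.74 and 0.87 on the log2 scale in Huh7-IR, Hep3B-IR and Hep3B-CR cells, and its change of -0.35 in Huh7-CR cells did not pass. COX4I1, the largest nuclear subunit, and COX6A1 passed in no resistant group, with log2 fold changes between -0.32 and 0.32. COX7A2 fell by 0.56 in Huh7-IR and by 0.46 in Hep3B-CR cells, the latter call being lost without Hep3B parental replicate 1 or Hep3B-CR replicate 2 (-0.39 each) and against DMSO cells (-0.34, limma adjusted p = 0.071). COX5B, which binds zinc on the matrix side, fell by 0.53 in Huh7-IR cells (-0.43 and not past the threshold without Huh7 parental replicate 1) and was higher in Hep3B-CR than in parental cells (50.7 and 46.9 compared with 38.6 and 34.5 CPM; log2 fold change 0.41, limma adjusted p = 0.035). That increase was past the threshold neither with TMM factors (0.29) nor without any 1 of the 4 libraries (0.33 to 0.49), and against DMSO cells the change was 0.16 (limma adjusted p = 0.41).

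The 6 listed genes left out as too low are isoforms of complex IV known from other tissues. COX6A2, the isoform of heart and skeletal muscle, had 0 reads in all 16 libraries, which allows up to 3 reads, or 0.0390 to 0.0644 CPM depending on the library, as counting error only. COX4I2, COX6B2, COX7A1, COX7B2 and COX8C had at most 7, 15, 1, 2 and 4 reads in a library. Per kilobase of transcript, the level of COX4I1 in Huh7 parental cells was 427 CPM and that of COX4I2 was 0.0100 CPM. The isoforms COX4I1, COX6A1, COX6B1, COX7A2 and COX8A were thus those measured in all groups, and none of the counterparts had more than 15 reads in any library.

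In complex V, 8, 3, 4 and 6 of 18 members fell, and 2, 3, 0 and 0 rose. Over all genes, 21.5%, 16.8%, 13.7% and 15.2% fell and 36%, 24.5%, 18.3% and 23.6% rose. The 3 of 18 that fell in Huh7-CR cells are near the share over all genes. The median log2 fold changes of the members were -0.24, -0.12, -0.17 and -0.23. ATP5F1A, the alpha subunit of the catalytic head, was at 799 and 841 CPM in Huh7 parental, 674 and 618 in DMSO, 393 and 372 in IR and 436 and 479 in CR cells. The resistant Huh7 libraries did not reach the untreated ones, and the log2 fold changes were -1.10 and -0.84 ± 0.12 (SE, n = 2; limma adjusted p 1.2e-05 and 0.00016). In Hep3B, ATP5F1A was between 454 and 592 CPM in all libraries, and its changes of -0.08 and -0.26 did not pass. ATP5F1B, the catalytic beta subunit and the member with the highest CPM, fell in Huh7-IR cells by 0.62 on the log2 scale, with changes of -0.26, -0.10 and 0.04 in the others. Against Hep3B DMSO cells, which were at 887 and 860 CPM, the change of ATP5F1B in Hep3B-CR cells was -0.35 and past the threshold. The peripheral stalk, which holds the head in place, had 1 member that fell and 1 that rose in Huh7-IR cells, and ATP5PO and ATP5PD, its only members to rise in Huh7-CR cells, rose by log2 fold changes of 0.46 and 0.44. ATP5PO also rose in Huh7-IR cells by 0.32. ATP5MK, a small subunit linked to dimer formation, was by log2 fold change 0.48 higher in Huh7-CR and 0.53 lower in Hep3B-CR cells (limma adjusted p 0.047 and 0.033). With TMM factors, ATP5PO in Huh7-IR, NDUFA10 in Huh7-IR, NDUFA1 in Huh7-CR and ATP5MK in Huh7-CR cells were no longer past the threshold.

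The c subunit forms the rotor ring of the ATP synthase and is encoded by 3 genes, ATP5MC1, ATP5MC2 and ATP5MC3, whose mature proteins are identical. ATP5MC3 (gene ID 518; GRCh37 chr2:176040986-176046438) was at 445 and 428 CPM in Huh7 parental, 382 and 353 in DMSO, 123 and 139 in IR and 228 and 241 in CR cells. Its Hep3B values were 224 and 238 CPM in parental, 205 and 198 in DMSO, 146 and 177 in IR and 131 and 131 in CR cells. Resistant and untreated libraries did not overlap in either line. Its log2 fold changes were -1.73, -0.89, -0.52 and -0.81 (SE 0.12 each, limma adjusted p 3.7e-07, 9.9e-05, 0.0053 and 0.00026), and the first is the lowest change of any member in any resistant group. The Hep3B-IR call was lost without Hep3B-IR replicate 1 (-0.38).

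ATP5MC1 (gene ID 516; GRCh37 chr17:46970127-46973233) was at 145 and 132 CPM in Huh7 parental, 147 and 109 in DMSO, 64.2 and 68.7 in IR and 89.4 and 90.6 in CR cells. Hep3B cells had 45.4 and 55.5 CPM in parental, 51.4 and 48.2 in DMSO, 26.9 and 32.5 in IR and 21.9 and 26.9 in CR cells. Here, too, the resistant libraries lay below the untreated ones. ATP5MC1 had log2 fold changes of -1.05, -0.62, -0.74 and -1.02 (SE 0.17 each), all past the threshold. The Huh7-CR call was lost without Huh7 parental replicate 1 (-0.55) or Huh7-CR replicate 1 (-0.61), and the Hep3B-IR call without Hep3B parental replicate 2 (-0.60) or Hep3B-IR replicate 1 (-0.61).

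ATP5MC2 (gene ID 517; GRCh37 chr12:54026510-54071192) went a different way. It was at 136 and 100 CPM in Huh7 parental, 145 and 155 in DMSO, 166 and 154 in IR and 144 and 129 in CR cells, and the CR libraries overlapped the parental ones. In Hep3B it was at 123 and 135 CPM in parental, 184 and 201 in DMSO, 137 and 130 in IR and 151 and 150 in CR cells. Its log2 fold change of 0.45 ± 0.14 (SE, n = 2) in Huh7-IR cells was past the threshold (limma adjusted p = 0.015) and those of 0.22, 0.05 and 0.22 in the others were not. The Huh7-IR call was lost in 8 of 14 alternatives, among them TMM factors (0.25), DMSO cells as reference (0.09), and without Huh7 parental replicate 2 (0.23) or Huh7-IR replicate 1 (0.40). Against Hep3B DMSO cells the change in Hep3B-IR cells was -0.52 and past the threshold.

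Of the reads of the 3 c subunit genes, ATP5MC3 held 61.3% and 64.8% in Huh7 parental and 34.9% and 38.5% in Huh7-IR cells, while ATP5MC2 held 18.7% and 15.2% in parental and 46.9% and 42.5% in Huh7-IR cells. ATP5MC2 thus had the highest share of reads in Huh7-IR cells, where the sum of the 3 genes was 353 and 362 CPM compared with 726 and 660 CPM in parental cells. The share of ATP5MC2 was 31.3% and 28.0% in Huh7-CR, 31.3% and 31.6% in Hep3B parental, 41.7% and 45.0% in Hep3B DMSO, 49.7% and 48.7% in Hep3B-CR and 44.3% and 38.3% in Hep3B-IR cells. The Hep3B-IR and Hep3B DMSO shares overlapped. Shares are of reads, and the transcripts differ in length (2587 bases for ATP5MC3, 646 for ATP5MC1 and 632 for ATP5MC2), so that per kilobase ATP5MC2 was at 187 CPM and ATP5MC3 at 169 CPM in Huh7 parental cells and at 253 and 50.8 CPM in Huh7-IR cells.

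**Figure D2:**
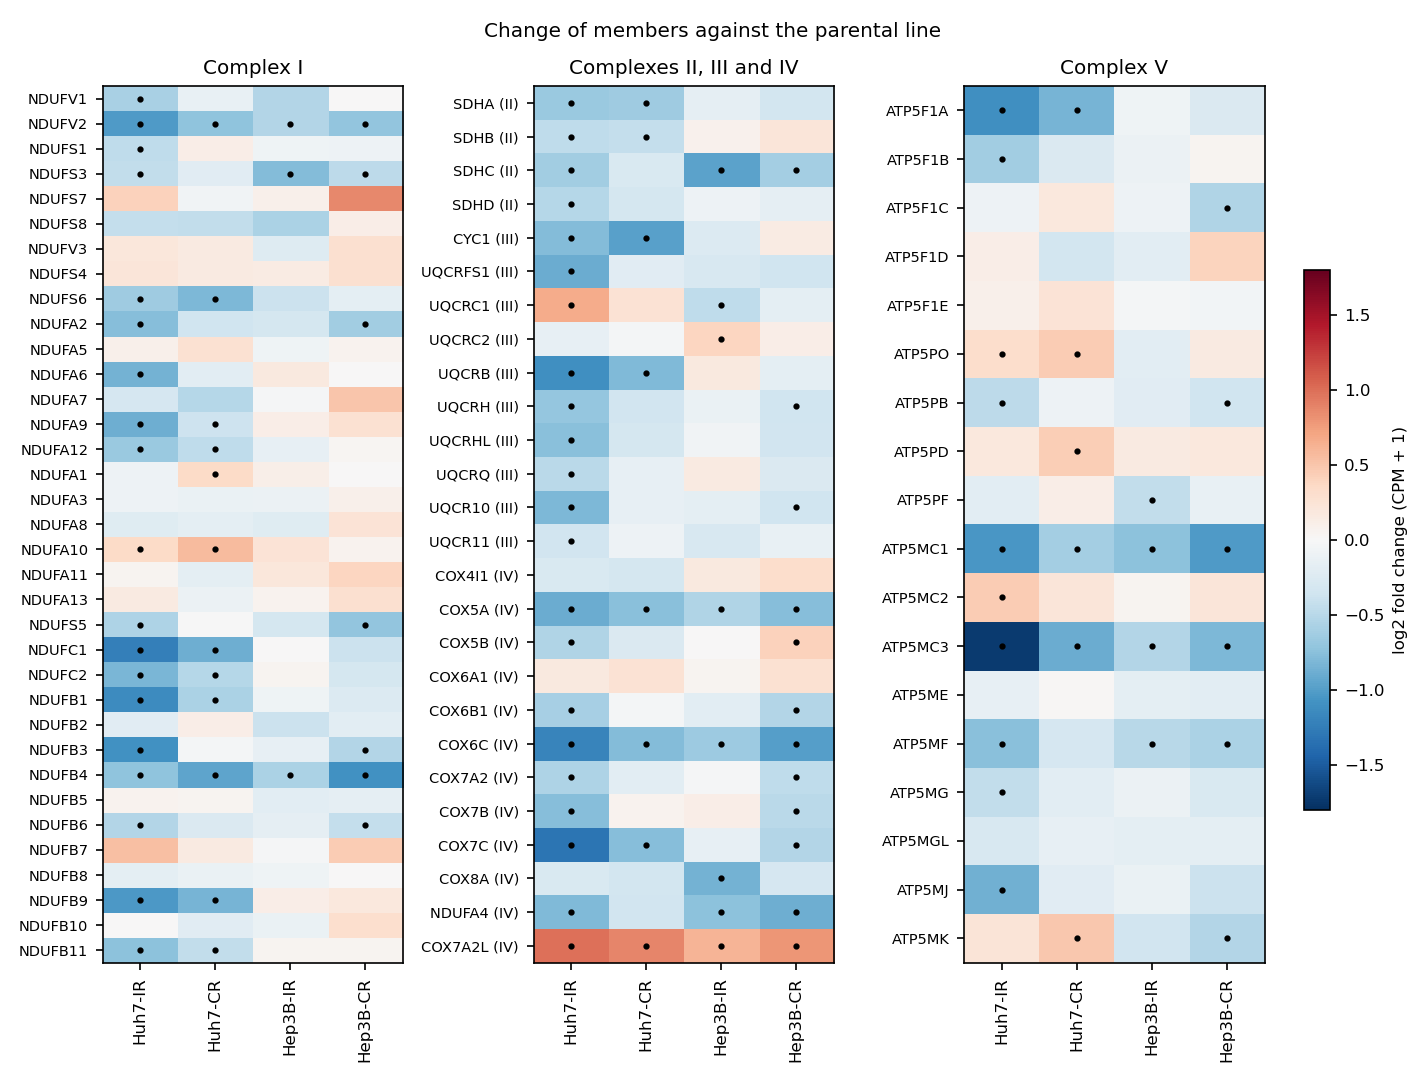
Fitted log2 fold change (colour) of 79 members against parental cells in the 4 resistant groups, by complex. Dots mark an adjusted p below 0.05. Blue prevails in Huh7-IR cells, where 46 of the members shown are marked lower and 5 higher, and COX7A2L is the only row that is marked higher in all groups.

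The 2 regimens were next compared without the parental libraries they share. Between Huh7-IR and Huh7-CR cells 17 members were lower in IR and 1 was higher, compared with 6.36% of all genes lower and 9.67% higher, and the median log2 difference was -0.25. NDUFB3, an accessory subunit of complex I, was at 33.5 and 32.7 CPM in Huh7-IR and 71.8 and 67.1 CPM in Huh7-CR cells, with parental cells at 72.6 and 70.0 CPM (log2 difference -1.05 ± 0.15, SE, n = 2; limma adjusted p = 0.0014). COX7B, a small subunit of complex IV, was at 76.7 and 50.2 CPM compared with 115 and 109 CPM (-0.84, limma adjusted p = 0.0088), a call lost without Huh7-CR replicate 1 (-0.80) or replicate 2 (-0.87). ATP5MC3 (-0.83), UQCRFS1 (-0.69) and NDUFS1 (-0.58) were also lower in IR cells, of which UQCRFS1 was lost without Huh7-CR replicate 1 (-0.66) or replicate 2 (-0.72). UQCRC1 was the member higher in IR cells (0.41), and this call was lost with TMM factors (0.31), with a GC correction (0.09) and without Huh7-IR replicate 1 (0.39), Huh7-CR replicate 1 (0.38) or Huh7-CR replicate 2 (0.44). Fewer members passed without either Huh7-CR library, and fewer of all genes did so as well. With a spread estimated from these 4 libraries alone, 0 of the members passed. The same fit called 0 of all 15019 genes, so its count says nothing about the members.

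Between Hep3B-IR and Hep3B-CR cells 5 members were lower in IR and 4 higher, compared with 7.55% and 6.13% of all genes, and the median log2 difference was 0.01. NDUFB4 (0.52) and COX7B (0.61) were higher and COX8A (-0.55) and NDUFV3 (-0.52), a small accessory subunit of complex I, lower in IR cells. At most 1 of these 9 calls was left when any 1 of the 4 libraries was omitted, namely 0 without Hep3B-IR replicate 1, Hep3B-CR replicate 1 or Hep3B-CR replicate 2 and 1 without Hep3B-IR replicate 2.

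The response of the lines was compared by the change averaged over IR and CR cells, in Huh7 minus Hep3B. This difference was negative for 16 and positive for 3 members, compared with 14.2% of all genes negative and 17.4% positive, and its median was -0.14. NDUFB9, an accessory subunit of complex I, was at 202 and 176 CPM in Huh7 parental, 94.4 and 89.2 in IR and 106 and 103 in CR cells. It was at 153 and 166 CPM in Hep3B parental, 169 and 177 in IR and 173 and 191 in CR cells. The resistant libraries were lower than parental ones in Huh7 and higher in Hep3B. The mean change was -0.93 in Huh7 and 0.16 in Hep3B, a log2 difference of -1.09 ± 0.13 (SE; limma adjusted p = 9.6e-05).

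UQCRB, a subunit of complex III near the quinone site, had a mean log2 change of -0.95 in Huh7 and of 0.00 in Hep3B, a difference of -0.95 (limma adjusted p = 0.0010). The differences of CYC1 (-0.83), ATP5F1A (-0.80), ATP5MC3 (-0.64), COX5B (-0.61), SDHB (-0.59), COX4I1 (-0.55) and ATP5F1B (-0.41) passed as well. UQCRC1 had a mean change of 0.47 in Huh7 and -0.31 in Hep3B, a difference of 0.78 ± 0.14 (SE; limma adjusted p = 0.0016), and ATP5MK had 0.36 and -0.44, a difference of 0.79 ± 0.22 (limma adjusted p = 0.016). Of the 6 members named above that fell in each resistant group, ATP5MC3 alone gave a difference past the threshold. The others had differences of 0.05 for ATP5MC1 (SE 0.20), -0.0017 for NDUFB4 (SE 0.16) and -0.26 for NDUFV2, -0.16 for COX5A and -0.16 for COX6C (SE 0.14 to 0.19), which does not show that the lines were alike.

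**Figure D3:**
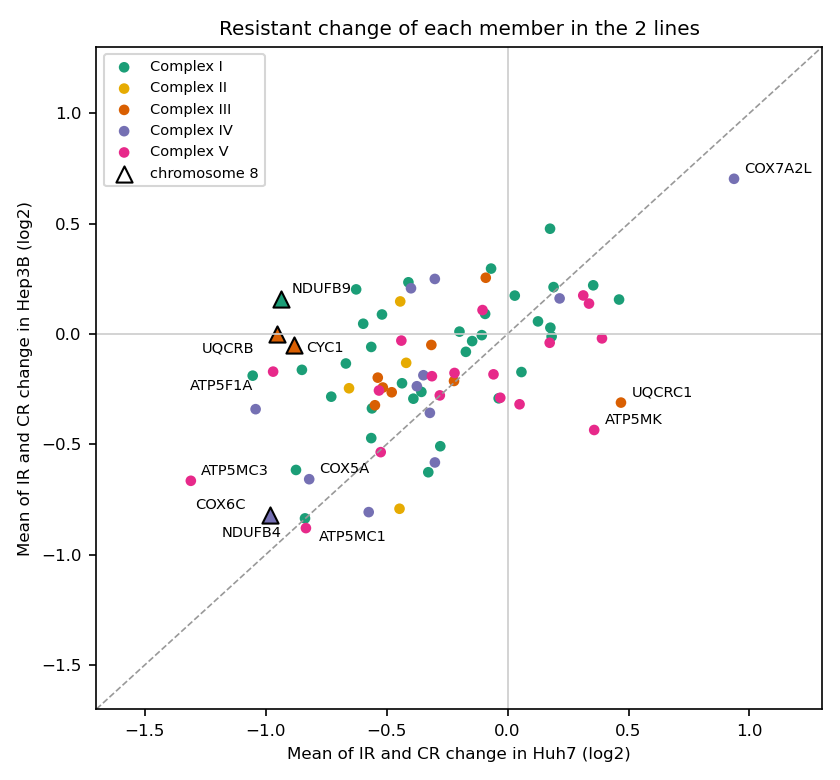
Mean log2 change of IR and CR cells against parental cells in Huh7 (horizontal axis) and Hep3B (vertical axis), 1 point for each of 79 members, coloured by complex, with equal change on the dashed line and genes on chromosome 8 as triangles. COX7A2L is alone at the upper right, UQCRC1 and ATP5MK are above 0 in Huh7 and below 0 in Hep3B, and NDUFB9, UQCRB and CYC1 are low in Huh7 and between -0.05 and 0.16 in Hep3B.

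Across the 80 members the changes in both lines had a Pearson's r of 0.51 and a Spearman's rho of 0.44, which is a description over genes that share their libraries. The mean change was below 0 for 62 members in Huh7 and for 55 in Hep3B, and for 48 in both. With so many below 0 in each line, an overlap near this size arises without any link, so the 48 does not show a shared response. The 4 members NDUFB9, UQCRB, COX6C and CYC1 lie on chromosome 8, a grouping chosen after their values were seen. Each of the 4 fell under both regimens in Huh7, IR and CR, with medians of -1.07 and -0.82 compared with -0.13 and -0.15 for all 481 genes of that chromosome. For Hep3B the medians of the 4 were -0.06 (IR) and -0.02 (CR), compared with 0.16 and 0.16 for the chromosome. Over all 15019 genes the medians in Huh7 were 0.19 (IR) and 0.07 (CR), above those of the genes of chromosome 8. A part of the chromosome in these changes was not tested, and chromosomes 18 and 21 are given as examples only. The 2 members on chromosome 18 had -1.06 (IR) and -0.79 (CR) in Huh7, compared with 0.10 and 0.04 for its 203 genes. The 3 on chromosome 21 had 0.20 and 0.16 in Huh7, also below the 0.59 and 0.39 of its 134 genes.

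Parental cells of the lines differed in the level of 7551 of all 15019 genes, and the share of members that differed was slightly below this. Of the 80, 24 were higher and 13 lower in Huh7 than in Hep3B parental cells, compared with 22.5% and 27.8% of all genes, and the median log2 difference was 0.10. With TMM factors the split was 30 higher and 9 lower. ATP5MC1 was at 145 and 132 CPM in Huh7 and 45.4 and 55.5 CPM in Hep3B cells (log2 difference 1.45 ± 0.17, SE, n = 2; limma adjusted p = 1.7e-05). NDUFA12, an accessory subunit of complex I, was at 119 and 118 compared with 56.6 and 49.5 CPM (1.15). NDUFB5, likewise an accessory subunit of complex I, was at 76.0 and 74.7 compared with 139 and 139 CPM (-0.87). None of these libraries overlapped between the lines.

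DMSO cells served as a background without the drug. In Huh7 1 member was higher and 0 lower than in parental cells, compared with 3.6% and 1.58% of all genes, while 13 had an unadjusted p below 0.05. The 1 member was ATP5ME, a small subunit of complex V, with 104 and 123 CPM compared with 81.0 and 71.2 CPM (0.57, limma adjusted p = 0.020), and it did not pass without Huh7 parental replicate 1 (0.67), Huh7 parental replicate 2 (0.48) or Huh7 DMSO replicate 2 (0.45). The count of members past the threshold depended on the library left out, and so did the count over all genes. In Hep3B 0 members were higher and 1 lower, compared with 1.11% and 0.533% of all genes. The 1 member was COX6C (-0.57, limma adjusted p = 0.034), which did not pass without any 1 of the 4 libraries (-0.64 to -0.49).

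Genes beside the members were counted for context, from lists of assembly factors, regulators, associated mitochondrial proteins and citric acid cycle enzymes. Of 50 assembly factors, 18, 16, 10 and 10 fell in the resistant groups and 5, 3, 2 and 7 rose. The shares that fell were 36%, 32%, 20% and 20%, compared with the 21.5%, 16.8%, 13.7% and 15.2% of all genes. COX17, the copper chaperone of complex IV, fell in all 4 groups, by 1.01, 1.37, 0.81 and 0.88 on the log2 scale, while TTC19, a factor for complex III, rose in all 4 (0.81, 0.60, 0.84 and 1.07). In Huh7-IR cells NUBPL, which helps to build complex I, had the lowest change (-1.38) and COX19, a factor of complex IV, the highest (1.43). Complex III factors differed in Hep3B-IR cells, where UQCC1 rose (1.03) and UQCC3 fell (-1.35). COX16, a factor of complex IV, fell in Hep3B-CR cells (-0.89).

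Of 14 regulators, 4, 1, 3 and 2 fell (28.6%, 7.14%, 21.4% and 14.3%) and 4, 3, 2 and 3 rose. Among all genes, 21.5%, 16.8%, 13.7% and 15.2% fell. A single gene of the 14 makes up 7.14%, so these counts do not resolve a difference between the regimens. PPARGC1A, a coactivator of mitochondrial genes, rose in Hep3B-CR (2.14), Hep3B-IR (1.72) and Huh7-CR cells (1.84), groups in which members of the chain fell, and its change in Huh7-IR cells was 0.91 (limma adjusted p = 0.081). TFB2M, a factor for transcription of mitochondrial DNA, fell in all 4 groups (-0.68, -0.50, -1.19 and -0.69). HIF1A, which encodes the oxygen-regulated factor, fell by 0.95 in Huh7-IR cells and rose by 0.87 in Hep3B-IR cells, with -0.50 and 0.49 in the CR cells, which did not pass. MYC rose in Huh7-IR cells (0.95).

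Of 14 associated mitochondrial genes, 6, 4, 4 and 4 fell (42.9%, 28.6%, 28.6% and 28.6%) and 4, 2, 3 and 4 rose. The shares over all genes that fell were 21.5%, 16.8%, 13.7% and 15.2%. HIGD1A, a hypoxia-induced protein that binds complex IV, was at 285 and 306 CPM in Huh7 parental, 299 and 295 in DMSO, 115 and 112 in IR and 160 and 158 in CR cells. Its Hep3B values were 109 and 97.7 CPM in parental, 95.0 and 89.0 in DMSO, 53.1 and 59.9 in IR and 53.6 and 47.4 in CR cells. It fell in all 4 groups (-1.37, -0.89, -0.86 and -1.02), with no overlap between resistant and untreated libraries. CYCS, cytochrome c itself, fell in Hep3B-IR cells (-0.98), and LONP1, a matrix protease, rose there (0.82) and in Hep3B-CR cells (1.57). PDK1, which restrains pyruvate dehydrogenase, rose in Huh7-IR (1.51) and Huh7-CR cells (1.23), while Huh7 DMSO replicate 2 was at 67.9 CPM, above the 30.3 to 51.1 CPM of the resistant Huh7 libraries. Of 14 citric acid cycle enzymes outside complex II, 5, 1, 3 and 2 fell (35.7%, 7.14%, 21.4% and 14.3%) and 0, 1, 1 and 2 rose.

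Composition was measured beside these changes, and its part in them was not tested. The members' transcripts had a median GC content of 47.1%, compared with 47.9% over all genes tested, and a median length of 760.5 bases, compared with 3201 bases. Across the 78 members with a sequence, the Spearman correlation of the log2 fold change with GC content was 0.25, -0.08, -0.12 and 0.34 in the resistant groups, and 0.46 and 0.66 in Huh7 and Hep3B DMSO cells. Over all genes with a GC value these correlations were 0.19, 0.01, 0.00, 0.19, 0.29 and 0.48. Among the members the correlation was 0.44 for Huh7-IR against Huh7-CR and -0.53 for Hep3B-IR against Hep3B-CR cells, compared with 0.37 and -0.30 over all genes. Replicates of 1 group also differed with GC content over all genes, with a correlation of 0.53 between the Huh7 parental and -0.52 between the Huh7 DMSO libraries. These correlations are descriptions over genes of the same libraries. With a correction for GC content, NDUFV1 had a change of -0.31 in Hep3B-CR cells, past the threshold, where it was 0.00 without it. NDUFS7, an iron-sulfur subunit of complex I and the member with the lowest CPM, was at 3.67 and 17.8 CPM in the Huh7 DMSO libraries.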

How the data were processed

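RNA of 16 libraries, 2 for each of 8 groups taken from the sample titles, was sequenced after poly(A) enrichment. The authors mapped the reads with STAR to hg19, keeping unique hits, counted them over RefSeq exons with QuasR and deposited CPM values, scaled to the library total. The labels name a TruSeq stranded mRNA kit and a NextSeq sequencer, while the methods name a total RNA kit and a HiSeq sequencer, and the methods state triplicates. Reads shared between near-identical genes or overlapping transcripts (UQCRH and UQCRHL, ATP5MG and ATP5MGL, readthrough transcripts of NDUFC2 and ATP5MF) may be missing or misplaced.

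Gene IDs were matched to symbols (26111 of 26258). The 15019 genes that reached 1 CPM in 2 or more libraries were fitted on log2(CPM + 1) by limma 3.58.1 (R 4.3.3) with 8 group means and a mean-variance trend, and p-values were adjusted over all of these genes. The fit was tested on simulated data. From the low values, 100% of the entries came out as whole reads within 0.05, with totals between 46613302 and 76860251, and edgeR 4.0.16 and DESeq2 1.42.0 were run on these reads as alternatives. Further alternatives were TMM factors, pseudocounts of 0.25 and 4 CPM, no filter, a GC correction, the study's thresholds, DMSO cells as reference, a fit of the compared groups only, a replicate block, and leaving out each library. NDUFA4 and NDUFB6 lacked a GC value and were left out of the GC correction. The medians without each library were chosen after seeing the data.

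Members, lists and tests were chosen with earlier results of these data known. Named genes were a panel of catalytic or well-known subunits and tissue isoforms, in each comparison the 2 largest increases and the 2 largest decreases past the threshold without overlap of libraries (for the difference between lines, past the threshold only), and the members past it in the same direction in all 4 resistant groups. Of the assembly factors, regulators and associated genes, the largest increase and decrease in each resistant group were named. The values of 1 member, which stays in the counts and sums, are not reported here. Other named genes were chosen after their values were seen. Gene coordinates are from GRCh37, and promoters from RefSeq on GRCh38.p14.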

Additional observations from a re-analysis of the deposited data

Results flagged for a closer look

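For 11 named members the change averaged over IR and CR cells differed between Huh7 and Hep3B by the test of the difference itself (limma, adjusted p below 0.05). The groups of 2 libraries were too small for a test of single outlying libraries.

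In 9 of them the log2 difference, Huh7 minus Hep3B, was negative. NDUFB9 had the lowest difference, -1.09, from mean changes of -0.93 and 0.16. UQCRB had -0.95, CYC1 -0.83, ATP5F1A -0.80 and ATP5MC3 -0.64. The difference was -0.61 for COX5B, -0.59 for SDHB, -0.55 for COX4I1 and -0.41 for ATP5F1B. UQCRC1 (0.78) and ATP5MK (0.79) had positive differences, with a mean change above 0 in Huh7 and below 0 in Hep3B. The differences of NDUFB9, UQCRB, UQCRC1, ATP5F1A and ATP5MC3 passed the threshold in all 22 alternatives.

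The other 6 did not. ATP5F1B was no longer past the threshold in 15 of the 22 alternatives, and with DMSO cells as reference its difference was 0.10. COX4I1 was lost in 7, each of them the omission of 1 library, with -0.38 to -0.60 (lowest without Hep3B parental replicate 2, highest without Huh7 parental replicate 1). COX5B was lost with DMSO cells as reference (-0.42), without Huh7 parental replicate 1 (-0.50) and without Hep3B parental replicate 2 (-0.53). ATP5MK was lost with DMSO cells as reference (0.51), without Huh7 parental replicate 2 (0.71) and without Hep3B parental replicate 1 (0.75). SDHB was lost without Huh7 parental replicate 1 or Hep3B parental replicate 2 (-0.53 each), and CYC1 with DMSO cells as reference (-0.47).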

How the results depend on the processing

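More members fell than rose in each resistant group under all alternatives. The counts of members past the threshold moved by over 1.5 times in these cases. With the study's thresholds they were 15 in Huh7-CR, 8 in Hep3B-IR, 11 in Hep3B-CR and 2 in Huh7 DMSO cells, 8 between Huh7-IR and Huh7-CR, 2 between Hep3B-IR and Hep3B-CR and 18 between the parental lines. By these thresholds 5553, 4523, 5275, 2171, 3148, 2671 and 6640 of all 15019 genes passed in the same comparisons. With DMSO cells as reference 26 members passed in Hep3B-IR cells. The count over all 15019 genes there was 5759, compared with 4811 against parental cells. With a spread from the compared groups only, 0 passed in Huh7 DMSO, Hep3B DMSO and Huh7-IR against Huh7-CR cells, and 4 in Hep3B-IR against Hep3B-CR cells. Of all 15019 genes, 0, 2, 0 and 1604 passed in these comparisons, in that order. DESeq2 gave 6 in Huh7 DMSO, 3 in Hep3B DMSO, 38 between Huh7-IR and Huh7-CR and 15 between Hep3B-IR and Hep3B-CR cells, and edgeR gave 0 in Hep3B DMSO cells. Over all genes, DESeq2 gave 2178, 647, 3042 and 2674 in these comparisons, and edgeR gave 77 in Hep3B DMSO cells.

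Leaving out 1 library gave 44 to 50 members in Huh7-IR, 18 to 23 in Huh7-CR, 8 to 13 in Hep3B-IR, 14 to 20 in Hep3B-CR, 0 in Hep3B DMSO and 0 to 10 in Huh7 DMSO cells. It gave 5 to 16 between Huh7-IR and Huh7-CR, 0 to 1 between Hep3B-IR and Hep3B-CR, 25 to 30 between the parental lines and 10 to 21 for the difference between lines. Counts moved by over 1.5 times without any 1 library of the comparison for DMSO cells and for Hep3B-IR against Hep3B-CR (10 in Huh7 without Huh7 DMSO replicate 1, and otherwise 0 or 1), and without Hep3B parental replicate 2 (10 in Hep3B-IR, 15 in Hep3B-CR and 11 for the difference between lines), Hep3B parental replicate 1 (17 and 11 for the latter), Hep3B-IR replicate 1 (8), Hep3B-CR replicate 2 (14), Huh7 parental replicate 1 (10 for the difference between lines), and either Huh7-CR library (5). Calls over all genes also moved with the library left out, so these counts are not a result about the members. The medians of the members without 1 library lay between -0.53 and -0.43 in Huh7-IR, -0.17 and -0.11 in Hep3B-IR, -0.28 and -0.14 in Huh7-CR and -0.18 and -0.13 in Hep3B-CR cells, an alternative chosen after seeing the data.

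The median log2 fold change of the members in Huh7-IR cells was -0.69 with TMM factors, -0.63 with a GC correction, -0.70 with edgeR and -0.72 with DESeq2. In Huh7-CR cells it was -0.30 with edgeR. In Hep3B-IR cells it was -0.19 with TMM factors, with DMSO cells as reference (-0.19) and with edgeR (-0.19), and -0.21 with DESeq2. In Hep3B-CR cells it was -0.28 with TMM factors, -0.23 with a GC correction, -0.27 with DMSO cells as reference, -0.29 with edgeR and -0.31 with DESeq2. Divided by TMM factors, the summed CPM had means of 10854 in Huh7 parental, 10436 in Huh7 DMSO, 6722 in Huh7-IR, 8534 in Huh7-CR and 7322 in Hep3B-CR cells.

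With DMSO cells as reference, changes close to 0 became decreases for ATP5MC2 in Hep3B-IR (-0.52), NDUFV1 in Hep3B-CR (-0.57) and ATP5F1B in Hep3B-CR cells (-0.35), and the difference between lines of ATP5F1B turned to 0.10. NDUFV1 in Hep3B-CR cells was at -0.31 with a GC correction. The causes were not tested. Of 91 named results past the threshold, 43 changed their call under at least 1 alternative, and of 135 not past it, 32 did.

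The main fit did not pair the samples by replicate number. The deviations of same-numbered libraries correlated between -0.22 and 0.44 over 28 pairs of groups, 13 of them over 0.1. Some same-numbered libraries thus deviated together, most of all those of Huh7-IR and Huh7-CR cells. With a replicate block the counts were 52 in Huh7-IR, 15 in Hep3B-IR, 27 in Huh7-CR, 26 in Hep3B-CR, 1 in Huh7 DMSO, 1 in Hep3B DMSO, 18 between Huh7-IR and Huh7-CR, 9 between Hep3B-IR and Hep3B-CR, 38 between the parental lines and 18 for the difference between lines.

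With 2 libraries per group, small changes could not be resolved, and counts of 0 allow up to 3 reads. CPM are relative to the RNA counted in a library, and amounts per cell and protein levels were not measured.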
